A study of Mus musculus with 2 samples.

Results

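Mast cell transcripts were followed in tumors of WT and TSK mice through 7 genes of the 32285 in the deposited matrices, the proteases Cpa3, Mcpt4, Tpsb2 and Cma1 and the receptor genes Kit, Fcer1a and Ms4a2. The genes were matched by symbol and counted in barcodes with at least 200 genes, at least 500 unique molecular identifiers (UMIs, each standing for 1 captured RNA molecule), at most 10% mitochondrial UMIs and a sequence found in 1 library only, and the question was whether their UMIs sat in a few barcodes or were spread thinly over many. The set was chosen by earlier UMI counts of these libraries, in which Mcpt4 and Cpa3 had low TSK to WT ratios in macrophage-like cells, so its levels are given as a description and were not tested.

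SO ovarian cancer cells (p53-/-, Hras, myc) were injected under the flank skin of female C57BL/6 mice, 6 to 8 weeks old, so both groups carried SO tumors. WT mice served as controls, and TSK mice carried the Tight skin allele, a duplication inside 1 copy of Fbn1, which encodes the matrix protein fibrillin-1. Tumors of 4 mice per genotype were pooled, digested, depleted of red and dead cells, and loaded without sorting for droplet-based single-cell sequencing of transcript 3′ ends, which gave 1 library per genotype. Single mice cannot be told apart within a pool, genotype cannot be told apart from library, and 3′ counts of Fbn1 do not show the duplication.

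Mast cells are long-lived tissue cells of the blood lineage that settle in skin and other barrier tissues and store histamine, proteoglycan and proteases in granules. In mice, those of connective tissue are known for the chymases MCPT4 and CMA1, the tryptase TPSB2 and carboxypeptidase A3, whereas those of mucosa are known for the chymases MCPT1 and MCPT2. Survival depends on KIT, the receptor for stem cell factor, and antigen triggers granule release through the high-affinity IgE receptor, whose α and β chains are FCER1A and MS4A2. KIT is also known from blood progenitors, melanocytes, innate lymphoid cells and some endothelial cells, so a Kit transcript alone does not mark a mast cell.

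The filter kept 1442 of 2332 WT barcodes (17070622 UMIs, median 7658.5 per barcode) and 2961 of 4436 TSK barcodes (45661542 UMIs, median 7302). The libraries had 263 barcode sequences in common, and these were removed from both. Levels are given as counts per 1000000 UMIs (CPM) of the barcodes named. All intervals are exact 95% intervals that cover counting error only, not the spread between mice.

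The protease genes sit on 3 chromosomes of the mouse genome (GRCm38, GENCODE M21), and all 7 members are protein-coding. Mcpt4 (ENSMUSG00000061068) lies at chr14:56059629-56062313 and Cma1 (ENSMUSG00000022225) at chr14:55941451-55944675, both on the minus strand, in a locus that also holds Mcpt1 and Mcpt2. Cpa3 (ENSMUSG00000001865) lies at chr3:20215620-20242181 on the minus strand, where the microRNA gene Mir7007 overlaps it on the same strand. Tpsb2 (ENSMUSG00000033825) lies at chr17:25366305-25369098 on the plus strand, near its close copy Tpsab1, and the division of reads between these copies is uncertain. Kit (ENSMUSG00000005672) lies at chr5:75574916-75656722 on the plus strand, Fcer1a (ENSMUSG00000005339) at chr1:173221284-173227214 and Ms4a2 (ENSMUSG00000024680) at chr19:11615523-11623719, the last pair on the minus strand.

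Because the proteases and Fcer1a appeared together in the same barcodes, the bases just before their transcription starts are shown, from RefSeq (GRCm38.p6, 250 bases on the strand of the gene, 5′ to 3′). Entries were found for 6 of the 7 members, all but Tpsb2. Capitals mark GATAA, the core letters bound by GATA factors, or its reverse complement TTATC. The windows are chr3:20242182-20242431 for Cpa3, chr14:56062311-56062560 for Mcpt4, chr14:55944676-55944925 for Cma1 and chr1:173227230-173227479 for Fcer1a, all on the minus strand.
Cpa3: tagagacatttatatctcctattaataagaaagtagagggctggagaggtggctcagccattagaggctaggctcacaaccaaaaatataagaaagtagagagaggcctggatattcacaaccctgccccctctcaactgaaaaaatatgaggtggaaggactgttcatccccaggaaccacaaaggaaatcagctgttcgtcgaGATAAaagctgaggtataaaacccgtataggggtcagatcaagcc
Mcpt4: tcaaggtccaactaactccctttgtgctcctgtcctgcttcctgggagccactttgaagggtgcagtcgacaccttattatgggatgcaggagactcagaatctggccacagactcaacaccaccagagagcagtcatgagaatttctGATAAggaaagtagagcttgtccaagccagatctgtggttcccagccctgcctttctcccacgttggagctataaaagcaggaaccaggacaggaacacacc
Cma1: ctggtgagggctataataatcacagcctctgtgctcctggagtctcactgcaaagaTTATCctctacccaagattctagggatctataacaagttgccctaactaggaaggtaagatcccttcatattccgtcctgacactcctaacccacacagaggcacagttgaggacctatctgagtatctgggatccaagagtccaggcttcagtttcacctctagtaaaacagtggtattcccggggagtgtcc
Fcer1a: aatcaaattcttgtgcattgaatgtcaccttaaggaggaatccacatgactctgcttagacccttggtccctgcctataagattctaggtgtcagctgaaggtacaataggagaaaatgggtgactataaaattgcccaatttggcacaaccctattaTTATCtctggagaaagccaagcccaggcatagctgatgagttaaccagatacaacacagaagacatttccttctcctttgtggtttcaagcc
The motif began 45 bases before the start of Cpa3, 102 before Mcpt4, 194 before Cma1 and 92 before Fcer1a. It lay on the strand of the gene in Cpa3 and Mcpt4 and on the other strand in Cma1 and Fcer1a. Ms4a2 held 3 matches, between 224 and 10 bases before its start, and Kit held none. In all, 5 of the 6 members with an entry had a match, against 22.6% of all 32851 windows of this length (7418), and a match is a run of letters and not evidence of binding.

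Nearly all protease UMIs were found in 4 barcodes, 2 in each library. A barcode was called mast-high when it held at least 3 of the 7 members, at least 5 UMIs of them and at least 0.5% of its UMIs from them. In the first WT barcode (6832 UMIs) there were 90 Cpa3, 234 Mcpt4, 48 Tpsb2, 93 Cma1, 14 Kit, 12 Fcer1a and 3 Ms4a2 UMIs, 7.23% of its RNA molecules. In the second WT barcode (3731 UMIs) there were 85 Cpa3, 124 Mcpt4, 80 Tpsb2, 90 Cma1, 3 Kit, 11 Fcer1a and no Ms4a2 UMIs, or 10.5%. All 7 members were thus seen together in 1 barcode, and the other WT barcode lacked only Ms4a2. In the first TSK barcode (1376 UMIs) there were 26 Cpa3, 50 Mcpt4, 41 Tpsb2, 60 Cma1, 2 Ms4a2 and no Kit or Fcer1a UMIs, or 13%. In the second TSK barcode (1324 UMIs) there were 8 Cpa3, 28 Mcpt4, 60 Tpsb2, 52 Cma1, 4 Fcer1a and no Kit or Ms4a2 UMIs, or 11.5%. Both TSK barcodes were shallower than both WT barcodes, and neither held a Kit UMI. Just outside the threshold, the next WT barcode reached 0.0923% with 23 UMIs, all of Kit, and the next TSK barcode 0.131% with 2 UMIs, both of Kit.

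The mast-high barcodes were 0.139% of kept WT barcodes (interval 0.0168 to 0.5%) and 0.0675% of kept TSK barcodes (0.00818 to 0.244%). The log2 ratio of TSK to WT was −1.04 (−4.82 to 2.75), so a difference in the share of such barcodes was not detectable at this number of cells. The same 4 barcodes met each of the other definitions and filters tried.

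**Figure D1:**
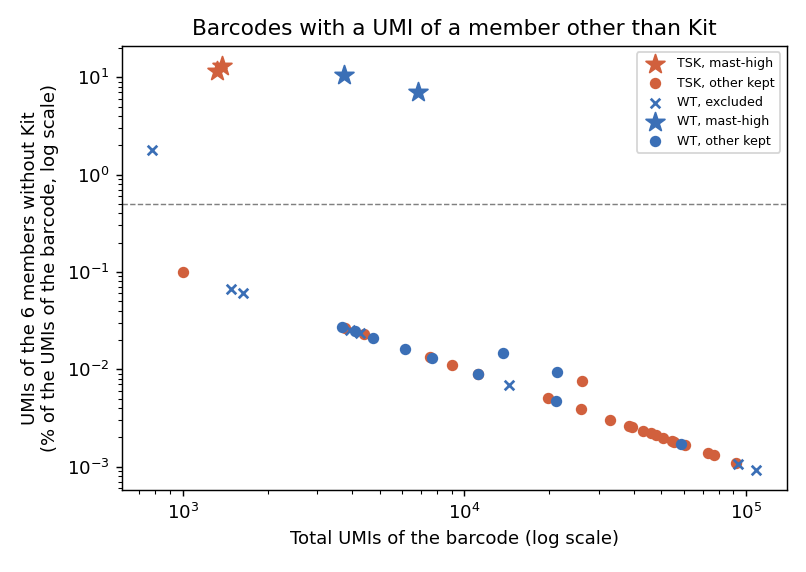
Each point is a barcode with at least 1 UMI of a member other than Kit; the x axis gives its total UMIs and the y axis the percent of them from these 6 genes, both on log scales, with colour for the library and the dashed line at 0.5%. The 4 mast-high barcodes (stars) lie far above the other kept barcodes (circles), which hold 1 or 2 such UMIs each, and 1 excluded WT barcode (cross) lies between them.

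Carboxypeptidase A3, the product of Cpa3, trims peptides and snake or bee venom toxins in the granule. Of 178 Cpa3 UMIs in WT, 175 were in the mast-high barcodes (98.3%, interval 95.2 to 99.7%). Of 51 in TSK, 34 were (66.7%, 52.1 to 79.2%). Cpa3 in TSK was thus the protease with the largest part outside, where 17 barcodes held 1 UMI each.

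Mcpt4 and Cma1 encode proteases of the chymase family, of which MCPT4 cuts after aromatic residues and acts on matrix and angiotensin. For Mcpt4, 358 of 362 WT UMIs (98.9%) and 78 of 79 TSK UMIs (98.7%) were in mast-high barcodes. For Cma1, the counts were 183 of 185 in WT (98.9%) and 112 of 115 in TSK (97.4%). Tpsb2, a tryptase gene, had 128 of 130 UMIs there in WT (98.5%) and 101 of 103 in TSK (98.1%). Outside the mast-high barcodes these genes never passed 2 UMIs in a barcode.

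Fcer1a and Ms4a2, the IgE receptor chains, were the rarest members. All 23 WT and all 4 TSK UMIs of Fcer1a were in mast-high barcodes. Ms4a2 had 3 of 4 UMIs there in WT and 2 of 2 in TSK. Kit behaved otherwise: 17 of 239 UMIs were in mast-high barcodes in WT (7.11%, 4.2 to 11.1%) and none of 1128 in TSK, which allows at most 0.326%.

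A count that does not use the threshold gave the same picture. Among genes with at least 20 UMIs, 90% or more of the UMIs sat in only 2 barcodes for 0.28% of genes in WT (40 of 14283) and 0.117% in TSK (19 of 16247). Of the members, 5 of 6 tested were among them in WT, all but Kit, and 3 of 5 in TSK, namely Mcpt4, Tpsb2 and Cma1. The 2 leading barcodes held 5.47% of UMIs for the median gene in WT and 2.75% in TSK. Since the members were chosen with counts of these libraries known, nothing further is read from these numbers.

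**Figure D2:**
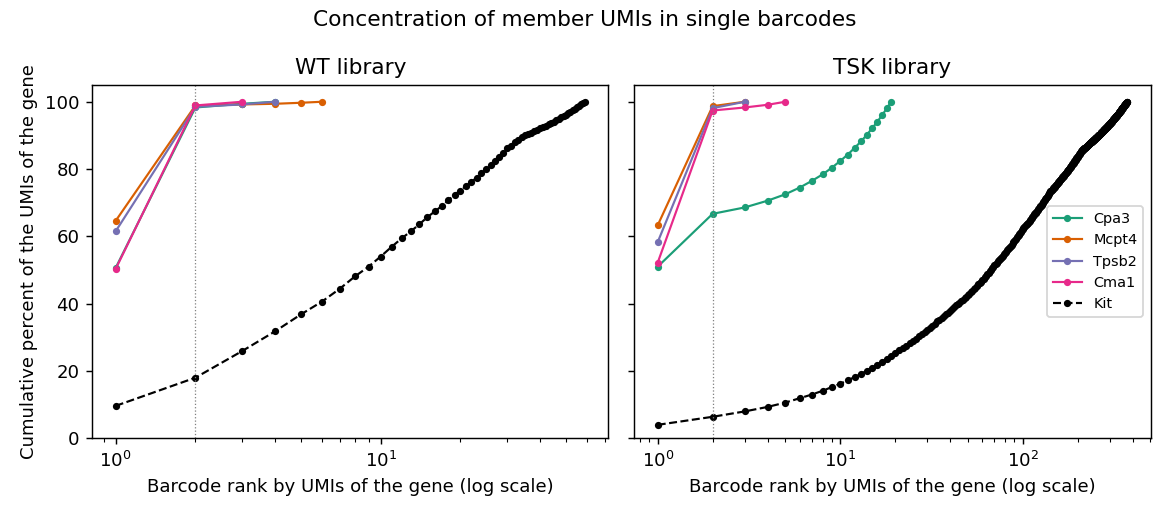
Cumulative percent of the UMIs of each gene (y axis) over barcodes ranked by that gene (x axis, log scale), for WT (left) and TSK (right), with the dotted line at rank 2; Fcer1a and Ms4a2 are not drawn. Protease curves pass 97% by rank 2, except Cpa3 in TSK at 66.7%; Kit (dashed) needs 59 WT and 373 TSK barcodes to reach its total, and the WT curve of Cpa3 is hidden by that of Cma1.

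Outside the mast-high barcodes, the 6 members without Kit left 12 UMIs in 10 of 1440 WT barcodes and 23 UMIs in 22 of 2959 TSK barcodes. This was 0.703 CPM in WT (0.363 to 1.23) and 0.504 in TSK (0.319 to 0.756), and the log2 ratio of TSK to WT was −0.48 (−1.55 to 0.66). None of these barcodes held UMIs of 2 different genes among these 6 members, with Kit not counted. Summed over the 6 genes, the background was therefore low and of a size that did not differ between libraries beyond counting error. For Mcpt4 alone the log2 ratio was −3.42 (−9.04 to −0.08), from 4 WT UMIs and 1 TSK UMI. The intervals of Cpa3, Tpsb2, Cma1 and Ms4a2 included equal levels.

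The make-up of the stray UMIs matched that of the mast-high barcodes in WT within counting error but not in TSK. In the WT mast-high barcodes, Cpa3 made up 20.7% of protease UMIs (18 to 23.6%), and among the 11 stray WT protease UMIs it made up 27.3% (6.02 to 61%). In the TSK mast-high barcodes Cpa3 made up 10.5% (7.35 to 14.3%), whereas among the 23 stray TSK protease UMIs it made up 73.9% (51.6 to 89.8%). By class, 12 of the 17 stray TSK Cpa3 UMIs were in cancer-like barcodes, the class with 68.3% of TSK UMIs. That was 0.385 CPM of Cpa3 (0.199 to 0.672), against 0.311 from 1 UMI in WT cancer-like barcodes (0.00786 to 1.73). In WT, 6 of the 11 stray protease UMIs were in macrophage-like barcodes, 1.32 CPM (0.486 to 2.88). In TSK, macrophage-like barcodes held 1 UMI, 0.246 CPM (0.00623 to 1.37), and the intervals overlapped. The set was chosen by low ratios of Mcpt4 and Cpa3 in macrophage-like cells, so nothing is read from this contrast. The source of the stray UMIs was not tested.

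The 4 proteases together made up 6.81% and 10.2% of the UMIs of the WT barcodes and 12.9% and 11.2% of those of the TSK barcodes. Their order differed from barcode to barcode. Mcpt4 led in both WT barcodes, with 50.3% and 32.7% of protease UMIs. Cma1 led in the first TSK barcode with 33.9%, and Tpsb2 led in the second with 40.5%. Cpa3 was lowest in the second TSK barcode, at 5.41%, against 14.7 to 22.4% in the other three. Barcodes of 1 library differed from each other here, and with 2 per library no difference between genotypes can be read from these shares.

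Mcpt1 and Mcpt2, the mucosal chymases, were found almost only in the second TSK barcode. It held 58 of the 59 Mcpt1 UMIs and all 88 Mcpt2 UMIs of both libraries, beside its Mcpt4, Cma1, Tpsb2 and Cpa3 UMIs. In contrast, Mrgprb1, a receptor gene of the Mas-related family, had all 21 UMIs in the other three mast-high barcodes, 8 in each WT barcode and 5 in the first TSK barcode. Mrgprb2, the receptor through which basic peptides and drugs activate connective tissue mast cells, had 1 and 3 UMIs in the WT barcodes and none elsewhere. The 4 barcodes thus held 2 patterns, one with Mrgprb1 and without Mcpt1 and Mcpt2, and the reverse in a single barcode of 1324 UMIs.

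**Figure D3:**
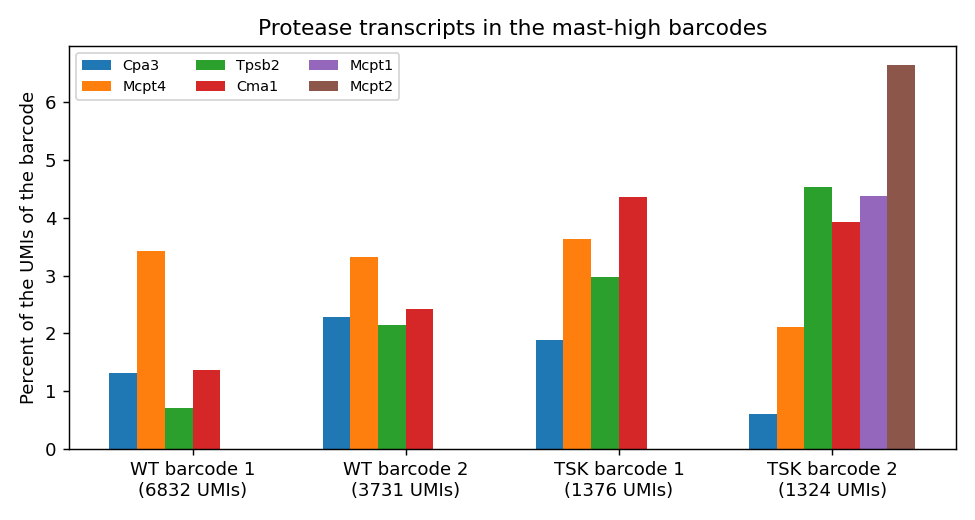
Percent of the UMIs of each mast-high barcode (y axis, from 0) that came from the 4 member proteases and from Mcpt1 and Mcpt2, with 1 group of bars per barcode (x axis) and its total UMIs below; bars are single values without error. Mcpt1 and Mcpt2 appear in the second TSK barcode alone, where Tpsb2 is the highest of the 4 member proteases, and Mcpt4 is the highest in both WT barcodes.

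Genes known from mast cells that were not used to choose the barcodes were present in them as well. From a list of 27 mast cell genes, 21 had a UMI in the 4 barcodes, 17 in WT and 17 in TSK. Of the 21 list genes with at least 20 UMIs in all, 16 were at least 2-fold higher in CPM there than in the other barcodes and 3 at least 2-fold lower. Over all 17322 genes with at least 20 UMIs, 10.4% were 2-fold higher and 82.8% 2-fold lower, and only 3288 of the 24882 genes with a UMI had one in these barcodes. These calls mostly separate genes with a UMI there from genes without one, since 1 UMI in the 4 barcodes is already 75.4 CPM. Ndst2 was called higher from 1 UMI, and the 3 lower list genes were all at 0 UMIs. The median share of UMIs in the mast-high barcodes was 2.16% for the tested list genes and 0% for all tested genes. At the stricter mark of 90% of UMIs in mast-high barcodes, 0.0462% of genes passed (8). These were the 5 members other than Kit and Ms4a2 and the 3 non-members Mcpt1, Mcpt2 and Mrgprb1. The UMIs of the members defined these barcodes, so nothing is read from the members passing.

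Granule genes were the most abundant of this list. Srgn, which encodes the granule proteoglycan core serglycin, had 41 and 14 UMIs in the WT barcodes and 7 and 4 in the TSK barcodes. It was 10.1-fold higher in CPM than elsewhere, and is known from many blood cells. Hdc, the histamine-forming enzyme, had 31 and 16 UMIs in WT and 5 and 5 in TSK, 226-fold higher. Il1rl1, the receptor for interleukin 33, had 12 and 7 UMIs in WT and 7 and 9 in TSK, 228-fold higher. Cyp11a1, a steroid-forming enzyme, had 10 and 1 UMIs in WT and 1 and 1 in TSK. Hdc, Il1rl1, Srgn, Cyp11a1, Tpsab1 and Rab27b, a GTPase of granule transport, were the 6 list genes seen in every mast-high barcode. The transcription factor gene Gata2 had 12 and 3 UMIs in WT and 1 and 0 in TSK, 104-fold higher. Gata1 had none of its 9 UMIs there, which allows a share of up to 33.6%. The leukotriene genes Alox5, Alox5ap and Ltc4s also had no UMI in the 4 barcodes.

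**Figure D4:**
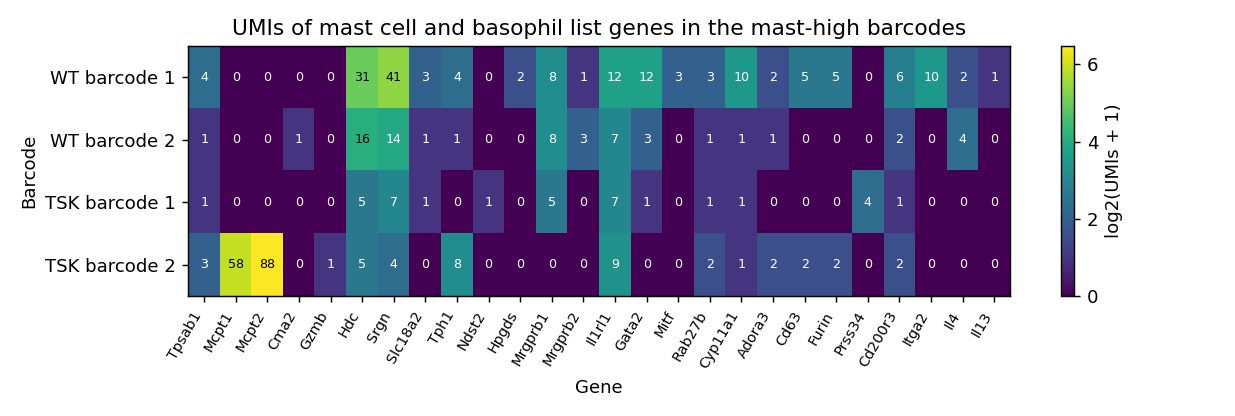
UMIs (numbers in the cells, colour on the scale of log2(UMIs + 1)) of the mast cell and basophil list genes with at least 1 UMI in a mast-high barcode, with genes on the x axis and the 4 barcodes on the y axis. Hdc, Srgn and Il1rl1 fill every row, whereas Mcpt1 and Mcpt2 fill only the row of the second TSK barcode, and counts are higher in the deeper first WT barcode.

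Serotonin genes stood among the 10 non-member genes with the highest share of UMIs in mast-high barcodes. Tph1, the first enzyme of serotonin synthesis, had 13 of 24 UMIs there (54.2%), 4 and 1 in WT and 0 and 8 in TSK. Slc6a4, the serotonin transporter, had 17 of 73 (23.3%), and Maob, which breaks down monoamines, had 31 of 88 (35.2%), 29 of them in the first WT barcode. The others were Mcpt2, Mrgprb1, Mcpt1, the actin nucleator gene Cobl, the cadherin gene Cdh9, the calcium channel gene Ryr3 and Gm47599. For Cobl, Cdh9, Ryr3 and Gm47599 every mast-high UMI came from the first WT barcode, with 13, 8, 18 and 5 UMIs.

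Basophils share the IgE receptor with mast cells, and 5 of 8 genes on a basophil list had a UMI in the mast-high barcodes, against 3288 of 24882 genes. Of the 6 tested, 4 were at least 2-fold higher and 2 lower, against 10.4% and 82.8% of all genes. Il13 was called higher from 1 UMI, and the lower genes, Il3ra and Il6, were at 0 UMIs. Mcpt8, the basophil protease, had none of its 10 UMIs there. Prss34, another basophil protease, had its 4 UMIs in the first TSK barcode. Itga2, also on the basophil list, had 10 UMIs, all in the first WT barcode, and was 110.5-fold higher in CPM than elsewhere. Cd200r3, an activating receptor of both cell types, had 6 and 2 UMIs in WT and 1 and 2 in TSK. The cytokine gene Il4 had 2 and 4 UMIs in the WT barcodes and none in the TSK barcodes.

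Markers of other cell types were nearly absent from the 4 barcodes. Most genes were absent too, since only 3288 of the 24882 genes with a UMI had one there. T, NK, B, neutrophil, dendritic, eosinophil, fibroblast, mural, cancer, erythroid, melanocyte and keratinocyte markers all stood at 0 UMIs. Of 7 macrophage markers, Apoe alone was found, with 5 and 13 UMIs in the WT barcodes and 0 in the TSK barcodes. Of 5 endothelial markers, Pecam1 alone was found, with 1 UMI in the second WT barcode. Il1rl1, which also stands on the innate lymphoid list, was the only gene of that list with a UMI. When the members and both lists were left out of clustering, these barcodes formed no cluster of their own. The WT pair joined an unnamed WT cluster of 27 barcodes, and the TSK barcodes joined a macrophage-like and a cancer-like cluster.

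The IgE receptor and KIT pathway was covered by a list of 18 genes, of which 14 had a UMI in the mast-high barcodes. All 18 were tested, 13 were at least 2-fold higher there than elsewhere and 4 at least 2-fold lower, against 10.4% and 82.8% of all genes. With 1 UMI equal to 75.4 CPM there, Stat5a, Plcg2 and Ptpn6 were called higher from 1 UMI each. The 4 lower genes were all at 0 UMIs. Fcer1g, the shared signalling chain of Fc receptors, had 11 and 2 UMIs in WT and 1 and 0 in TSK, 3.46-fold higher in CPM. Gab2, an adaptor below KIT and the IgE receptor, had 20 and 1 UMIs in WT and none in TSK. Lyn, the kinase that first phosphorylates the receptor, was found in every mast-high barcode, with 4, 1, 2 and 2 UMIs, as was the lipid phosphatase gene Inpp5d, with 4, 1, 1 and 1. Lat, Plcg1, Stat5b and Kitl had no UMI there. At these depths a count of 0 in a TSK barcode covers a wide range of levels, since 3 counts are 0.218% of the UMIs of the first and 0.227% of those of the second.

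Kit UMIs lay mainly outside the mast-high barcodes, 222 in 57 WT barcodes and 1128 in 373 TSK barcodes. Of these, 25 WT and 162 TSK barcodes held a single UMI, and the highest held 23 in WT and 45 in TSK. In CPM within a class, Kit was highest in endothelial-like barcodes among the classes named at the main clustering resolution, at 90.1 in WT (74.7 to 108) and 87.1 in TSK (68.3 to 109.5). These came from 120 UMIs in 22 of 77 WT barcodes and 73 UMIs in 34 of 77 TSK barcodes. The log2 ratio of TSK to WT was −0.05 (−0.49 to 0.38), so the endothelial-like levels did not differ beyond counting error.

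Cancer-like barcodes, named from Lgals7, Cdkn2a and Krt18 while the listed markers Krt8 and Krt7 did not pass, held most Kit UMIs in TSK. They held 741 Kit UMIs in 247 of 1243 TSK barcodes, 65.7% of the TSK UMIs of Kit outside mast-high barcodes, from a class with 68.3% of all UMIs. The level was 23.8 CPM in TSK (22.1 to 25.5) against 4.35 in WT (2.38 to 7.29), where 14 UMIs were found in 5 of 144 barcodes. The log2 ratio was 2.45 (1.69 to 3.33). The removed barcodes found in both libraries were given no class. They held 145 Kit UMIs among 3116339 in WT and 12 among 386067 in TSK. How the ratio would change with them was not tested. Different clusters made up the cancer-like class in the libraries. Within the largest cluster, Kit was 21.6 CPM in 522 TSK barcodes (median 30123.5 UMIs) and 4.79 in 61 WT barcodes (median 46775 UMIs). A second cluster of deep barcodes had 28.6 CPM in 359 TSK barcodes and no Kit UMI in 8 WT barcodes. The third, of shallow barcodes, had 6.99 CPM in TSK and 3.69, from 1 UMI, in WT. An unnamed cluster led by Mid1 and Rtl4, with 146 TSK and 3 WT barcodes, stood below the endothelial-like level in TSK, at 69.1 CPM (61.1 to 77.8) from 272 UMIs, 45 of them in 1 barcode. Its 3 WT barcodes did not follow the higher TSK level, at 104 CPM (51.9 to 186) from 11 UMIs.

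**Figure D5:**
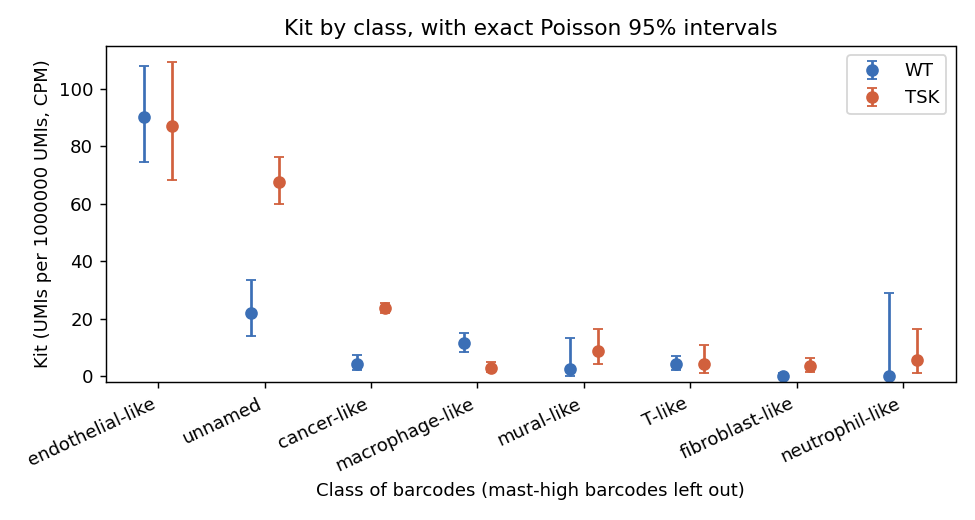
Kit in CPM within each class of barcodes (y axis, UMIs per 1000000 UMIs) for WT and TSK, without the mast-high barcodes; points are sums over the barcodes of a class and bars are exact Poisson 95% intervals for counting error. Endothelial-like barcodes are highest in WT and TSK alike (90.1 and 87.1), cancer-like barcodes are at 4.35 in WT and 23.8 in TSK, and fibroblast-like barcodes are near 0.

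Fibroblast-like and T-like barcodes had low Kit levels. In fibroblast-like barcodes, Kit had no UMI among 3327609 in WT, which allows up to 0.902 CPM, and 3.49 CPM in TSK from 10 UMIs (1.67 to 6.41). T-like barcodes stood at 4.2 CPM in WT and 4.31 in TSK, with 12 of the 13 WT UMIs in 1 cluster (16.2 CPM). The share of barcodes with a Kit UMI was 0% in WT and 2.11% in TSK fibroblast-like barcodes, at median depths of 22214 and 11072 UMIs, against 28.6% and 44.2% in endothelial-like barcodes at 12056 and 8234. Over all barcodes the share was 4.09% in WT and 12.6% in TSK, but 0.555% (0.24 to 1.09%) and 0.675% (0.413 to 1.04%) once each barcode was thinned to 500 UMIs. The WT cancer-like level of Kit, 4.35 CPM, was near that of the T-like barcodes, and the TSK cancer-like level was higher than both classes. With each barcode assigned alone to the class of its markers, the TSK levels lay closer, 27.2 CPM in cancer-like and 21.1 in fibroblast-like barcodes, against 6.72 and 0 in WT.

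Macrophage-like barcodes had more Kit in WT, 11.5 CPM from 52 UMIs against 2.95 from 12 UMIs in TSK, but 40 of the WT UMIs came from 9 barcodes of 1 cluster. At a finer clustering all 9 fell among 30 dendritic-like barcodes, whose Kit level of 103 CPM (73.3 to 139.7) overlapped in its interval with the endothelial-like one, and 8 of them held a dendritic marker, 7 of them Clec9a and 5 Flt3. One of them alone held 23 Kit UMIs. In TSK, 7 barcodes of the same cluster held 11 Kit UMIs, and 2 of them fell among dendritic-like barcodes. With each barcode assigned alone, macrophage-like levels were 2.47 CPM in WT from 8 UMIs and 3.19 in TSK from 11 UMIs. The log2 ratio was 0.37 (−1.08 to 1.89), so these levels did not differ beyond counting error.

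Kitl, which encodes the KIT ligand stem cell factor, was found in stromal and cancer-like barcodes and had no UMI in the mast-high barcodes. Endothelial-like barcodes had 632 CPM of Kitl in WT and 483 in TSK. Fibroblast-like barcodes had 376 in WT and 108 in TSK, a log2 ratio of −1.80 (−1.98 to −1.62). Cancer-like barcodes had 159 and 137, and held 18.2% of Kitl UMIs in WT and 77.2% in TSK. Mural-like barcodes had 199 in WT and 39.6 in TSK. Macrophage-like barcodes went the other way, with 14.8 in WT and 40.4 in TSK, a log2 ratio of 1.45 (1.03 to 1.88). Neutrophil-like barcodes had 0 Kitl UMIs among 126832 in WT, which allows up to 23.7 CPM. In TSK they had 54.7 CPM from 29 UMIs in 6 of 228 barcodes, with 22 of these UMIs in 1 barcode.

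Summed over all kept barcodes, every member except Kit had a lower level in TSK, but with equal weight for each barcode Tpsb2, Cma1 and Ms4a2 stood higher in TSK, by 0.35, 0.10 and 0.12 on the log2 scale. Cpa3 stood at 10.4 CPM in WT and 1.12 in TSK, a log2 ratio of −3.22 (−3.70 to −2.77). Mcpt4 stood at 21.2 and 1.73, a log2 ratio of −3.62 (−3.99 to −3.26). These sizes moved with the processing, to −2.63 for Cpa3 and −2.60 for Mcpt4 with upper limits of 10000 UMIs and genes, and to −1.48 and −1.29 with equal weight for each barcode. The log2 ratios were −1.76 for Tpsb2, −2.11 for Cma1 (−0.74 and −1.07 with the upper limits) and −3.94 for Fcer1a (−1.68 with equal weight), and the interval of Ms4a2, at −2.42, reached from −5.89 to 0.38. Kit was higher in TSK, 24.7 against 14 CPM, with a log2 ratio of 0.82 (0.62 to 1.03), or 0.38 (0.21 to 0.55) with the barcodes found in both libraries kept. By comparison, 18.4% of genes were at least 2-fold lower in TSK and 19.9% at least 2-fold higher, and the median gene ratio was 0.13 on the log2 scale. The ratios of the 6 members other than Kit rest on the depth of 4 barcodes, 2 in each library, which summed to 10563 UMIs in WT and 2700 in TSK. They also rest on the library totals, 17070622 UMIs in WT and 45661542 in TSK, of which cancer-like barcodes held 18.9% and 68.3%. Within the mast-high barcodes, the proteases were 6.81% and 10.2% of UMIs in WT and 12.9% and 11.2% in TSK. With those barcodes left out, the log2 ratio was 1.08 for Cpa3 (−0.71 to 3.50) and 0.88 for all 7 members (0.67 to 1.09), which is mainly Kit. Whether TSK tumors held fewer mast cells or mast cells with less captured RNA cannot be told apart at 2 barcodes per library. How much of each ratio came from the library totals was not tested.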

How the data were processed

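Pooled SO tumors of WT and TSK mice gave 1 library each. The authors deposited raw UMI counts per gene and barcode, without normalization. The file headers name Cell Ranger 7.1.0, the submitters' processing notes Cell Ranger 7.1.1 and the mouse build mm10. Of the gene identifiers, 99.6% were in GENCODE M21 (GRCm38), which gave positions.

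Barcodes were kept as stated, with no upper limit on UMIs. Doublets were left in and no caller was run. UMIs were summed per library, class or barcode, with exact Poisson, binomial and conditional 95% intervals, and the limit behind a 0 was set at 3 counts. Totals were 17070622 and 45661542 UMIs, so 3 counts are 0.176 and 0.0657 CPM (UMIs per 1000000). With 1 library per genotype no test was possible. Genes with at least 20 UMIs were compared across barcodes. The ratio calculation was tested on simulated data.

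For classes, counts were scaled to 10000 UMIs per barcode and log-transformed, and Leiden clusters (resolution 1) were taken from 20 neighbours in the first 30 principal components of 2000 variable genes, without members, mast cell and basophil lists or sex-linked genes, 47 genes in all. Clusters were named from at least 3 markers that reached 10% of its cells and 2 times the level of the median cluster, at least 1 of them among 50 leading genes; 16 of 20 were named. The tools were leidenalg 0.10.2, igraph 0.11.9, scikit-learn 1.9.0, scipy 1.17.1, numpy 2.4.6, pandas 2.3.3 and matplotlib 3.10.9 under Python 3.11.15.

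Members and lists were chosen with earlier results of these data known. Named genes are the 7 members, the genes of the lists, and the 10 non-members with the highest share of UMIs in mast-high barcodes; Mid1 and Rtl4 lead a cluster and were named after their values were seen, as were marker genes. Alternatives were limits of 10000 UMIs and genes, 20% mitochondrial UMIs, shared barcodes kept, no minimum, other definitions of mast-high, equal weight per barcode, scaling by the median gene ratio, Leiden resolutions 0.5 and 2 and classes for each barcode alone. Leaving out Kit or the mast-high barcodes was added after seeing the data. Dorsal skin, melanoma, breast and intraperitoneal tumor data were not analysed here.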

Additional observations from a re-analysis of the deposited data

Results flagged for a closer look

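Member UMIs also appeared in barcodes that the filter left out. The 890 excluded WT barcodes held 5 Cpa3, 9 Mcpt4 and 5 Tpsb2 UMIs, more than the 3 counts that a count of 0 allows, and 147 Kit UMIs. Most of the proteases came from 1 WT barcode with 779 UMIs, 275 genes and 54.2% mitochondrial UMIs, which held 4 Cpa3, 4 Mcpt4, 5 Tpsb2, 1 Cma1 and 2 Kit UMIs (2.05% of its UMIs), beside 6 Hdc and 1 Mrgprb1 UMIs. Without it, 7 protease UMIs remained in the excluded WT barcodes, and the 1475 excluded TSK barcodes held none. Of the 147 WT Kit UMIs, 145 were in barcodes with a sequence found in both libraries, which had 3116339 UMIs in WT and 386067 in TSK and 12 Kit UMIs in TSK. The excluded TSK barcodes held 99 Kit UMIs, 87 of them in barcodes over the mitochondrial limit.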

How the results depend on the processing

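No paired analysis was possible because each genotype had 1 library. The same 4 mast-high barcodes were found under each filter and definition tried. With upper limits of 10000 UMIs and genes, the log2 ratio of TSK to WT for all 7 members was −1.42, member UMIs outside mast-high barcodes were 5.96 CPM in WT and 18.8 in TSK, and the share inside was 96.9% and 74%, against 13.7, 25.2, 79.1% and 22.3% without limits. With shared barcodes kept, the WT values were 18.9 CPM outside and 70% inside. With equal weight per barcode, the log2 ratio was −0.39, the outside levels 8.82 and 17.7 CPM, and Tpsb2 (0.35), Cma1 (0.10) and Ms4a2 (0.12) turned to higher in TSK. Scaling by the median gene ratio gave −1.14. Without Kit, the ratio was −2.74, the outside levels 0.703 and 0.504 and the shares inside 98.6% and 93.5%. Without the mast-high barcodes the ratio turned to 0.88, and that of Cpa3 to 1.08. The share of Kit UMIs in cancer-like barcodes was 13.5% in WT and 89.9% in TSK at resolution 0.5 and 73.1% in TSK at resolution 2, against 6.31% and 65.7%, and that in endothelial-like barcodes of TSK was 9.49% with each barcode assigned alone, against 6.47%. Of the other alternatives, 45 values for whole comparisons and 34 for single genes stayed within their counting intervals. Counts of 2 mast-high barcodes per library, and depths of 1376 and 1324 UMIs in TSK, limit what can be said of genotype and of genes at 0.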
